A study of Homo sapiens with 9 samples.

Results

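Histone lysine methylases write, and histone lysine demethylases erase, the methyl marks on histones H3 and H4 that help to set which genes are read. These 47 genes were picked by name from the 62709 genes of the count data. A gene belonged to the set if its symbol began with KMT, KDM, SETD, NSD, EHMT or SUV39H and a digit, or was EZH1, EZH2, SETDB1, SETDB2 or DOT1L. Of 61 symbols that matched, 7 pseudogenes, 3 antisense genes, 3 divergent transcripts and 1 intronic transcript were left out. The set was grouped as 23 methylases (KMT2E among them), 18 demethylases and 6 further SETD proteins (SETD7 among them). The naming rule itself uses no measured value, but the genes and the partner lists were chosen with earlier results of these data known.

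RNA was sequenced from hTERT-MSC, a line of human adipose mesenchymal stem cells immortalised with telomerase. All 9 libraries came from cells exposed for 1 h to PDGF-BB (50 ng/mL), which attracts mesenchymal cells. Serum-starved cells settled for 2 h on membranes with pores of 3 µm and then extended processes through the pores toward the growth factor. The 3 groups, with 3 libraries each, were pseudopodia scraped from the underside, the cell bodies left on top, and whole cells, whose collection the labels do not describe separately. A group without PDGF-BB was not analysed here, and all values come from 1 cell line. Whether the 3 libraries of a group had cultures of their own is not in the labels, so the p-values speak only of how far these samples spread, and that spread may be technical.

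The library totals ran from 55469030 to 83894938 counts. Within a group, the biological coefficient of variation was 32% in pseudopodia, while it was 17.6% in cell body and 5.08% in whole cell. All 11 listed mesenchymal markers were detected, and 10 of them were lower in pseudopodia than in cell body (summed CPM of 27054 to 33069 in pseudopodia, 46912 to 55857 in cell body and 47139.5 to 48325 in whole cell). Many listed markers of other cell types were near 0 (PTPRC at most 0.408 CPM, EPCAM at most 0.0646, ADIPOQ at most 0.0332). Others were not: CD34 stood at 60.6 to 77.4, CD14 at 2.15 to 12.6, KRT14 at 14.0 to 26.3, CLDN4 at 3.26 to 4.78 and KRT5 at 1.17 to 1.99. Of the endothelial list only KDR (at most 0.0544) and CLDN5 (at most 0.0136) were near 0. TEK stood at 41.8 to 77.9, VWF at 1.05 to 21.5, CDH5 at 2.20 to 15.1 and PECAM1 at 2.95 to 11.3. FABP4 was at 0 counts in all 9 libraries. For pseudopodia, cell body and whole cell in turn, 6.02, 2.84 and 4.67% of counts came from mitochondrially encoded mRNAs and 6.02, 4.22 and 2.83% from mRNAs of cytosolic ribosomal proteins. With both of these gene groups left out of the fit, 35 genes of the set were higher and 0 lower between pseudopodia and cell body, 26 and 4 between pseudopodia and whole cell, and 6 and 16 between cell body and whole cell, beside 35 and 0, 25 and 5, and 6 and 16 with them. The part of the marker differences in the results was not tested. CPM (normalised read counts, scaled to library size) and TPM (also scaled to gene length) are shares of the RNA in a library, so a higher share in a fraction cannot be told apart from less of other RNA there, nor can fewer cells be told apart from less RNA per cell.

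As background, the enzymes are grouped by the residue they act on. Methylation of lysine 4 of histone H3 (H3K4) marks promoters and enhancers in use, that of H3K36 and H3K79 marks transcribed genes, and that of H3K9, H3K27 and H4K20 goes with silent or compacted chromatin. Most methylases carry a SET domain and take their methyl group from S-adenosylmethionine, whereas DOT1L has another fold. KDM1A and KDM1B are flavin-dependent oxidases, and the other demethylases carry an iron-dependent JmjC domain. The proteins act mostly in the nucleus. An mRNA can nevertheless be carried into a cell process, and stretches rich in G and A in the 3′ UTR are known to direct some mRNAs into protrusions.

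Because such stretches are the best known signal for protrusion mRNAs, they were searched for first. A GA run was a stretch of 15 or more bases in the annotated 3′ UTR made only of G and A, with at least 4 of each. The search used 1 coding transcript per gene from GENCODE release 29 on GRCh38. A run was present in 16 of the 45 tested genes of the set with a 3′ UTR (35.6%), beside 3346 of 13823 tested protein-coding genes (24.2%). The median 3′ UTR was 1275 bases in the set and 1073 bases in all of them, and a longer UTR has more room for a run. The sequences of 7 genes that the results turn on follow, written 5′ to 3′ with the GA run in capitals and its flanks in lower case.
KDM6B (chr17:7853701-7853730, plus strand): aatatGAGGAAAAAAGGAAAAAAAAtggga
DOT1L (chr19:2230719-2230748, plus strand): gcacagtGAAGAGGAAAGAAAAGcgagggg
KDM7A (chr7:140090877-140090906, minus strand): tggtGGGGGAGAGGAAGAAGGAGGGtagaa
KDM2A (chr11:67256350-67256379, plus strand): ttAAAAAAAAAAAGAAAGAAAGAAAGGtcg
KMT2D (chr12:49020962-49020991, minus strand): gggggtAGGAGGAGGAAGAAAAAcaacaac
KMT2A (chr11:118523136-118523165, plus strand): attttgtAGGAGAGGAAAAAGAttatttaa
SETDB2 (chr13:49492412-49492441, plus strand): tttgagtGGGGAGAGGGAGAAGctcttctg
The first 6 of these genes were higher in pseudopodia than in cell body, and SETDB2 was not. These 7 were picked with the fold changes known, so nothing is read from that split. KDM1B, with a run of 15 bases, did not pass between these fractions either (0.01). KMT2B and KMT2E, the genes of the set with the highest ratios between those fractions, had no such run in 3′ UTRs of 321 and 752 bases. KMT2B lies at chr19:35718019-35738878 on the plus strand and KMT2E at chr7:105014179-105114361 on the plus strand. In the set, the median log2 fold change between pseudopodia and cell body was 1.06 with a run and 0.64 without. Over all tested protein-coding genes with a 3′ UTR it was -0.03 and -0.08. A match is a description of the letters and was not tested as a signal.

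The first comparison, of pseudopodia with cell bodies, asks which of these mRNAs were enriched in the processes. Of 46 genes with enough counts to test, 35 were higher in pseudopodia (76.1%), 0 were lower and 11 did not pass. Among all 19426 genes tested, 18.6% were higher and 19.9% were lower (edgeR's quasi-likelihood test, called at a Benjamini-Hochberg adjusted p under 0.05). No gene of the set was lower at an unadjusted p under 0.05 either. DESeq2 called 0 lower, limma-voom 1 and limma on TPM 2. The edgeR fit used 1 spread per gene for all 9 libraries, so these tests also drew on the whole-cell libraries, which varied least. In a fit of only the 6 libraries compared, 29 genes were higher and 0 lower, beside 2613 higher and 2936 lower of all 17827 genes tested there. The calls of KDM4A, KDM4C, SETDB1, SETD7, EZH2 and NSD3 were lost in that fit. The median log2 fold change was 0.89 in the set and -0.05 in all genes tested. The CPM ranges of the groups did not overlap for 34 genes that were higher and for 1, KDM4D, that was lower, beside 22.6% and 24.5% of all genes. The 47 genes together made up 0.420, 0.446 and 0.431% of the pseudopodia libraries, 0.187, 0.228 and 0.214% of the cell body libraries and 0.265, 0.244 and 0.257% of the whole-cell libraries. Each pseudopodia library thus held more of this RNA than any other library.

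**Figure D1:**
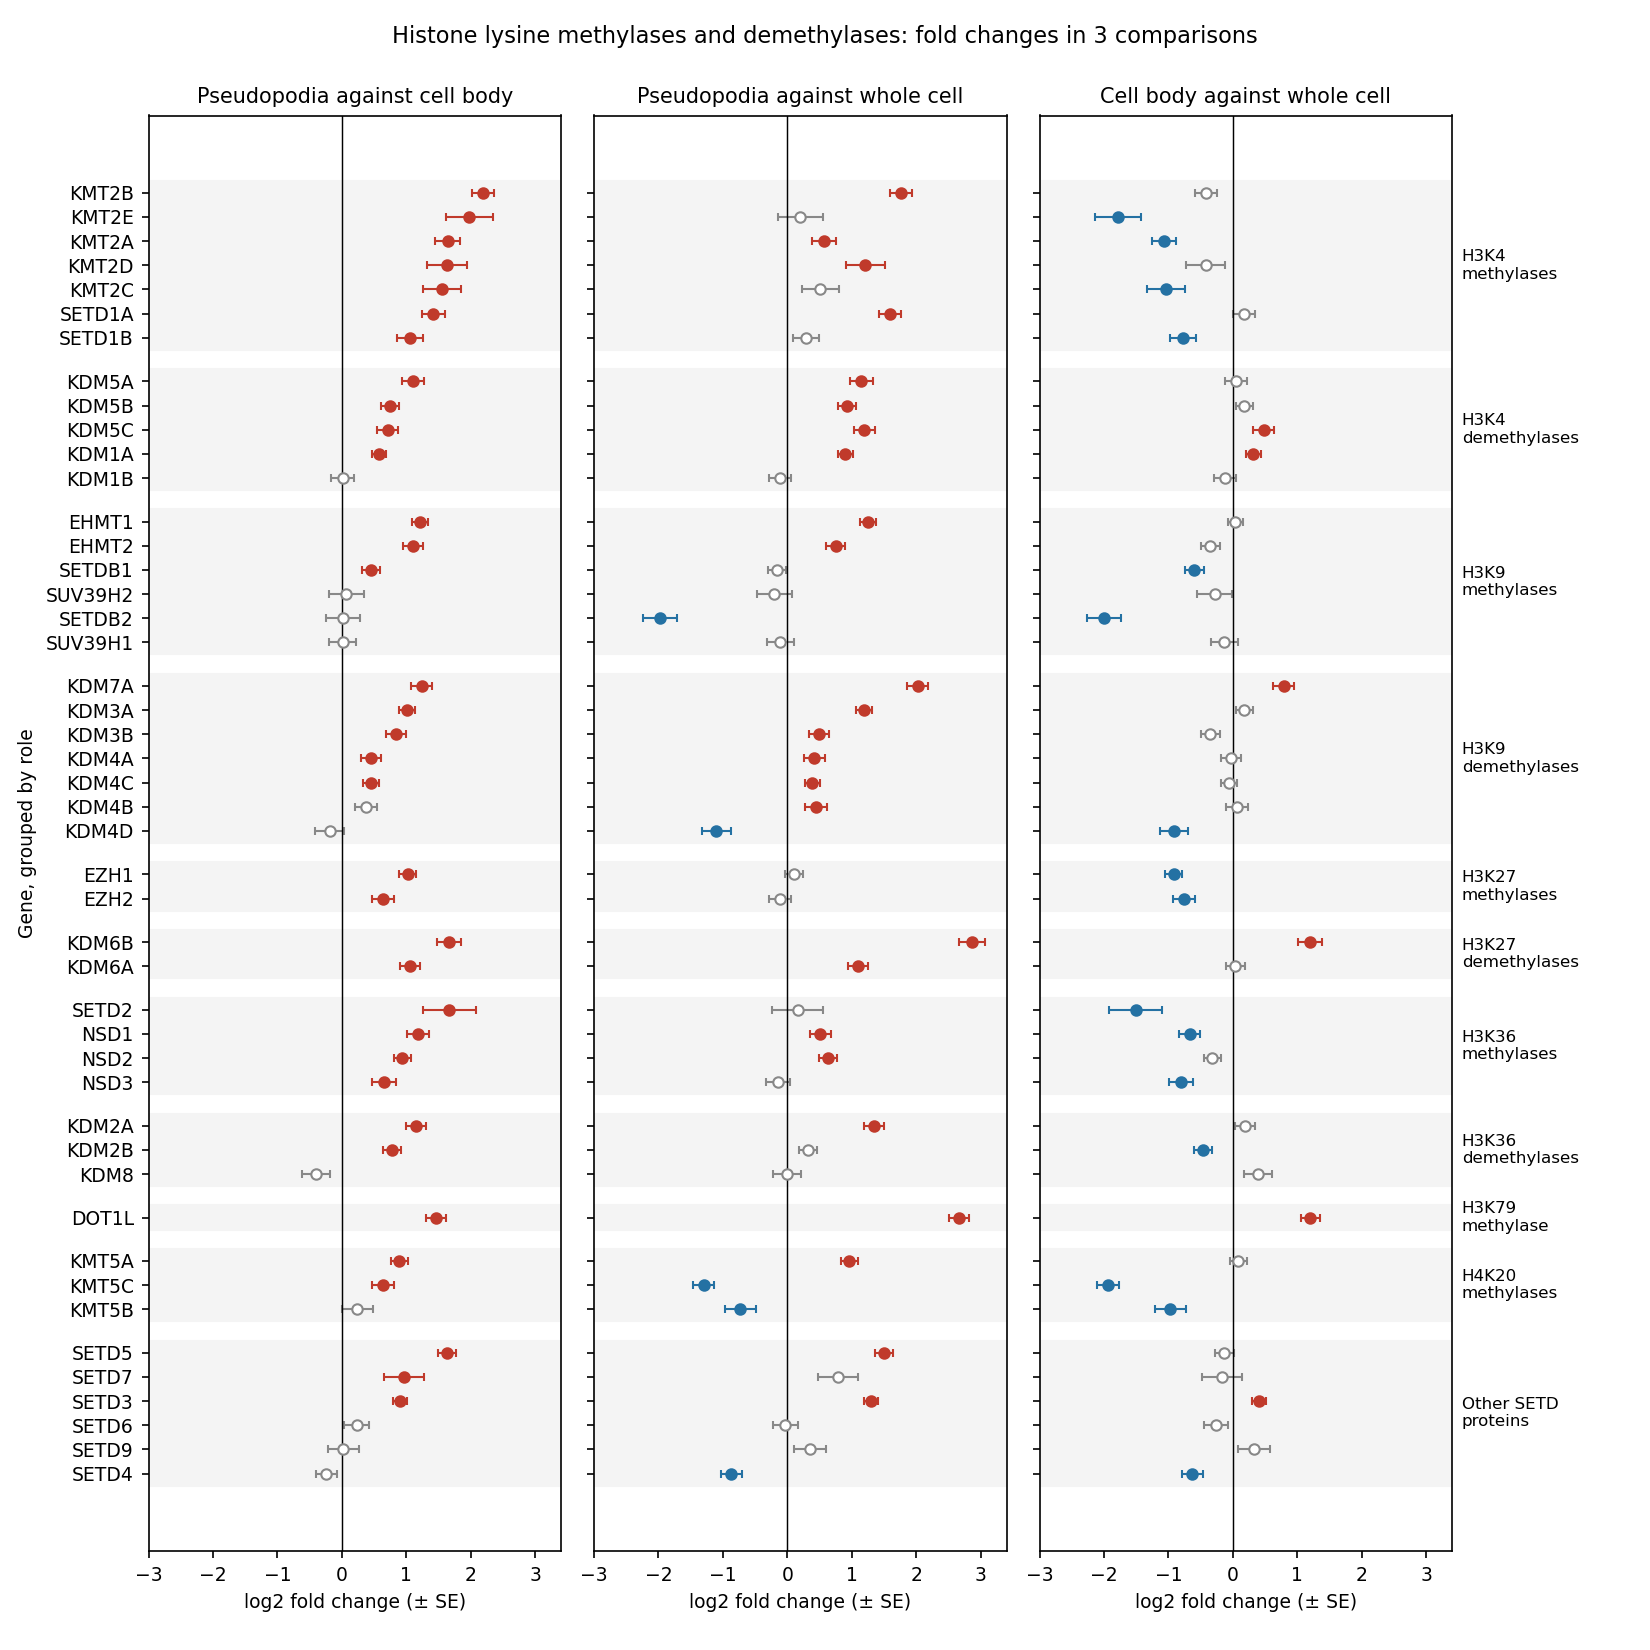
The log2 fold change of each of the 46 tested genes (x axis, with its standard error) is plotted by role for the 3 comparisons. Filled red points were higher, filled blue points lower, and open grey points did not pass at an adjusted p under 0.05. Between pseudopodia and cell body 35 points are red and 0 are blue, and between cell body and whole cell 6 are red and 16 are blue.

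Among the groups by role, the H3K4 methylases had the highest median ratio between pseudopodia and cell body. All 7 were higher in pseudopodia than in cell body, with a median log2 fold change of 1.63. Against whole cell 4 of the 7 were higher, with a median of 0.57, beside 27.9% of all genes tested that were higher. This group counts KMT2E and leaves out SETD7, which is described with the further SETD proteins. KMT2A and KMT2B are the catalytic subunits of complexes built on menin, and KMT2C and KMT2D serve enhancers. KMT2B stood at 174, 168 and 230.3 CPM in the pseudopodia libraries, at 34.6, 50.7 and 40.5 in cell body and at 58.9, 54.0 and 55.4 in whole cell. The lowest pseudopodia library was above every other library. Its log2 fold change against cell body was 2.19 ± 0.173 (SE, adjusted p = 3.52e-06), the highest in the set. Its near paralog KMT2A was at 149, 176 and 113 CPM in pseudopodia, 37.3, 56.3 and 46.8 in cell body and 103, 91.6 and 100.5 in whole cell. The 3 groups did not overlap, and cell body was lowest. Against cell body the log2 fold change of KMT2A was 1.64 ± 0.189 (SE, adjusted p = 4.97e-05).

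KMT2D had 198, 178 and 242 CPM in pseudopodia, 34.7, 89.0 and 75.9 in cell body and 96.6, 75.0 and 95.8 in whole cell. The cell body replicate 1 was low, yet all 3 cell body libraries were below pseudopodia. The log2 ratio of these fractions for KMT2D was 1.63 ± 0.307 (SE, adjusted p = 0.00256). KMT2C had 132, 233 and 117 CPM in pseudopodia, 45.4, 76.2 and 43.6 in cell body and 122, 101 and 117 in whole cell. Pseudopodia replicate 2 was high, and the other pseudopodia libraries fell in or near the whole-cell range. For KMT2C the log2 fold change against cell body was 1.55 ± 0.295 (SE, adjusted p = 0.00263). KMT2E, a relative with no clear methylase activity of its own, had 33.5, 88.9 and 59.3 CPM in pseudopodia, 13.8, 21.6 and 10.5 in cell body and 54.2, 49.5 and 54.1 in whole cell. Pseudopodia varied most, with replicate 1 low, but did not overlap cell body. Its log2 fold change between these fractions was 1.98 ± 0.360 (SE, adjusted p = 0.00216).

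SETD1A and SETD1B are the catalytic subunits of the SET1 complexes, which lay down most trimethylated H3K4. SETD1A was at 134, 125 and 181 CPM in pseudopodia, 47.1, 66.4 and 50.6 in cell body and 48.5, 46.5 and 51.2 in whole cell. Pseudopodia stood above all other libraries, while cell body and whole cell overlapped. Its log2 fold change was 1.42 against cell body (SE 0.174, adjusted p = 7.44e-05) and 1.59 against whole cell (SE 0.175, adjusted p = 1.89e-05). SETD1B showed 1.06 against cell body (SE 0.206, adjusted p = 0.00189) and did not pass against whole cell (0.29, SE 0.204, adjusted p = 0.236). The ratio of SETD1A to SETD1B in TPM, which allows for gene length, was 2.83 ± 0.166 (SD, n = 3) in pseudopodia, while it was 2.28 ± 0.390 in cell body and 1.16 ± 0.0844 in whole cell.

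Of the 5 H3K4 demethylases, 4 were higher in pseudopodia than in cell body: KDM5A (log2 fold change 1.11), KDM5B (0.75), KDM5C (0.71) and KDM1A (0.58). The same 4 were higher than in whole cell, at 1.15, 0.93, 1.19 and 0.90. KDM1A is the catalytic core of the CoREST repressor complex. Its paralog KDM1B, which acts in oocytes on imprinted genes, was at 19.9, 22.7 and 14.4 CPM in pseudopodia, 16.7, 19.2 and 20.8 in cell body and 20.4, 20.4 and 20.7 in whole cell. The groups overlapped, and KDM1B passed in no comparison (log2 fold changes of 0.01, -0.11 and -0.12, adjusted p = 0.981, 0.589 and 0.614). In TPM, KDM1A was 2.63 ± 0.400 (SD, n = 3) times KDM1B in pseudopodia, while it was 1.74 ± 0.213 in cell body and 1.27 ± 0.0305 in whole cell.

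The H3K9 methylases were divided. EHMT1 and EHMT2, which form a dimer for mono- and dimethylation in euchromatin, were higher in pseudopodia than in cell body (log2 fold changes of 1.21 and 1.10). SETDB1, which silences transposable elements with TRIM28, showed 0.45. The other 3 did not pass. SUV39H1 and SUV39H2, which trimethylate H3K9 in pericentric heterochromatin, were low throughout. SUV39H1 had 2.67, 2.65 and 3.88 CPM in pseudopodia, 3.51, 3.12 and 2.48 in cell body and 3.59, 3.27 and 3.07 in whole cell. SUV39H2 had 3.75, 4.54 and 1.81 CPM in pseudopodia, 3.27, 3.20 and 3.18 in cell body and 3.92, 3.79 and 3.99 in whole cell. The pseudopodia range overlapped cell body and whole cell for both genes. Neither passed in any comparison, with log2 fold changes of 0.01, -0.11 and -0.13 for SUV39H1 and 0.07, -0.20 and -0.28 for SUV39H2 (adjusted p from 0.442 to 0.971).

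SETDB2, a relative of SETDB1, went the other way against whole cell. It had 3.97, 5.78 and 2.78 CPM in pseudopodia, 4.71, 4.70 and 2.96 in cell body and 17.3, 15.8 and 16.2 in whole cell. Both fractions lay below all whole-cell libraries and overlapped each other. SETDB2 had log2 fold changes of -1.97 in pseudopodia (SE 0.264, adjusted p = 7.86e-05) and -2.00 in cell body (SE 0.265, adjusted p = 0.000249), both against whole cell. In TPM, SETDB2 was 0.842 ± 0.0431 (SD, n = 3) times SETDB1 in whole cell, 0.325 ± 0.0988 in cell body and 0.248 ± 0.118 in pseudopodia.

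Among the H3K9 demethylases, 5 of 7 tested were higher in pseudopodia than in cell body. KDM7A, which acts on dimethylated H3K9 and H3K27, had 51.9, 56.4 and 36.8 CPM in pseudopodia, 21.3, 21.2 and 19.1 in cell body and 12.8, 11.4 and 11.5 in whole cell. The groups did not overlap and fell in that order. Its log2 fold change was 1.24 against cell body (SE 0.164, adjusted p = 0.000141) and 2.02 against whole cell (SE 0.168, adjusted p = 2.68e-06), and cell body exceeded whole cell by 0.79 (SE 0.164, adjusted p = 0.00366). KDM3A (1.01) and KDM3B (0.84), which remove mono- and dimethylation, were also higher in pseudopodia than in cell body. KDM4A and KDM4C, erasers of trimethylated H3K9 and H3K36, each showed 0.45, and KDM4B showed 0.37 and did not pass (adjusted p = 0.113). The JmjC genes KDM4D and KDM4E were scarce. KDM4D held 0.491, 0.557 and 0.579 CPM in pseudopodia, 0.668, 0.597 and 0.584 in cell body and 1.12, 1.31 and 1.05 in whole cell, and was lower in both fractions than in whole cell (-1.10 and -0.91). KDM4E failed the expression filter, with 2 counts in whole cell replicate 3 and 0 in the other libraries.

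The H3K27 pair of demethylases included KDM6B, which had the highest mean TPM of the set in pseudopodia and in cell body, and rank 5 in whole cell. It removes trimethylated H3K27 and is known as a gene induced by growth factor and inflammatory signals. It stood at 454, 391 and 579.9 CPM in pseudopodia, 122, 189 and 141 in cell body and 68.1, 59.3 and 69.2 in whole cell. The 3 groups were fully apart. The log2 fold change of KDM6B was 1.66 ± 0.191 (SE) between pseudopodia and cell body (adjusted p = 4.82e-05) and 2.86 ± 0.199 between pseudopodia and whole cell (adjusted p = 8.33e-07). Cell body was also above whole cell, by 1.20 ± 0.189 (adjusted p = 0.000733). KDM6A, its X-linked paralog, was higher in pseudopodia than in cell body (1.06) and whole cell (1.10), and cell body and whole cell did not differ past the threshold (0.04, adjusted p = 0.867). In TPM, KDM6B was 28.4, 22.8 and 44.1 times KDM6A in the pseudopodia libraries, 20.3, 23.3 and 17.5 times in cell body and 9.44, 8.52 and 9.28 times in whole cell.

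EZH1 and EZH2 are the alternative catalytic subunits of the Polycomb complex PRC2, which methylates H3K27. Both were higher in pseudopodia than in cell body (log2 fold changes of 1.02 and 0.64) and lower in cell body than in whole cell (-0.92 and -0.76). Neither passed between pseudopodia and whole cell (0.10 and -0.12, adjusted p = 0.559 and 0.570). In TPM, EZH1 exceeded EZH2 in every library, by 3.30 to 6.98 times.

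All 4 H3K36 methylases were higher in pseudopodia than in cell body. SETD2, which trimethylates H3K36 behind RNA polymerase II, had 69.4, 126 and 88.2 CPM in pseudopodia, 28.6, 47.6 and 13.0 in cell body and 88.7, 80.7 and 84.1 in whole cell. The cell body libraries were all below the others but differed among themselves, with replicate 2 high and replicate 3 low. Its log2 fold change was 1.67 ± 0.407 (SE, adjusted p = 0.0103) against cell body, and cell body against whole cell gave -1.51 ± 0.405 (adjusted p = 0.0172). NSD1 (1.18), NSD2 (0.94) and NSD3 (0.66) place dimethylation at H3K36 and followed with lower ratios. KDM2A and KDM2B remove methyl groups from H3K36 and bind unmethylated CpG. KDM2A stood at 249.7, 230.3 and 310.1 CPM in pseudopodia, 97.6, 134 and 125 in cell body and 105, 102 and 106 in whole cell. Pseudopodia were above all others, and the remaining groups overlapped. KDM2A exceeded cell body by 1.15 (SE 0.153, adjusted p = 0.000147) and whole cell by 1.34 (SE 0.154, adjusted p = 2.65e-05). KDM2B rose against cell body by 0.78.

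KDM8, a JmjC protein whose histone activity is debated, had 1.92, 2.05 and 2.82 CPM in pseudopodia, 2.55, 2.90 and 3.46 in cell body and 2.69, 1.91 and 2.21 in whole cell. The groups overlapped. It passed in no comparison, at -0.40, -0.01 and 0.39 (adjusted p = 0.172, 0.966 and 0.179).

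DOT1L is the only known H3K79 methylase. It was at 173, 149 and 211 CPM in pseudopodia, 59.7, 73.4 and 60.9 in cell body and 29.2, 26.7 and 28.4 in whole cell. The groups did not overlap, and each step was large against the spread. The log2 fold change of DOT1L was 1.46 between pseudopodia and cell body (SE 0.150, adjusted p = 2.11e-05), 2.66 between pseudopodia and whole cell (SE 0.156, adjusted p = 2.91e-07) and 1.20 between cell body and whole cell (SE 0.149, adjusted p = 0.000162). In mean TPM it had rank 9 of the 47 genes in pseudopodia and rank 31 in whole cell.

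The H4K20 methylases differed from each other. KMT5A, which adds the first methyl group, was higher in pseudopodia than in cell body (0.89) and whole cell (0.96). The strand setting of the counting is not given in the sources used here, so the 21 genes of the set whose exons overlap those of a gene on the opposite strand carry that uncertainty. They include KMT2A, KMT2B, KMT2C, KMT2D, KMT2E, SETD1A, DOT1L, EHMT1 and EHMT2, but not KDM6B, KDM7A, KDM2A, SETD2, SETD5, SETDB2 or KMT5C. KMT5A is uncertain too, since reads can be shared with its processed copies KMT5AP1 and KMT5AP2, which held 53 to 169 counts per library. KMT5B and KMT5C add the further groups. KMT5C had 2.95, 2.54 and 3.20 CPM in pseudopodia, 1.95, 1.81 and 1.79 in cell body and 7.75, 6.74 and 6.81 in whole cell. The groups were apart, with cell body lowest and whole cell highest. KMT5C was higher in pseudopodia than in cell body by 0.64 (SE 0.165, adjusted p = 0.00964) but lower than in whole cell by -1.30 (SE 0.162, adjusted p = 4.75e-05), and cell body against whole cell gave -1.94 (SE 0.166, adjusted p = 1.34e-05). KMT5B did not pass between the fractions (0.24, adjusted p = 0.462) and was lower than whole cell in both (-0.73 and -0.97).

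Most of the 6 remaining SETD proteins have other or unclear substrates, and SETD7, which also acts on H3K4, was grouped with them. SETD5 had 354, 345 and 388 CPM in pseudopodia, 95.5, 137 and 119.8 in cell body and 133, 121 and 130.1 in whole cell. Pseudopodia stood well above the rest, which overlapped. SETD5 exceeded cell body by 1.63 (SE 0.144, adjusted p = 6.99e-06) and whole cell by 1.50 (SE 0.143, adjusted p = 6.82e-06). SETD3, which methylates a histidine of actin, was higher in pseudopodia than in cell body (0.90) and whole cell (1.30), and higher in cell body than in whole cell (0.40). SETD7, a monomethylase of H3K4 and of other proteins, passed between pseudopodia and cell body (0.96, adjusted p = 0.0372) although the groups overlapped, with 339.8, 422 and 166 CPM in pseudopodia and 115, 171 and 192 in cell body. SETD4 was lower in pseudopodia (-0.87) and cell body (-0.63) than in whole cell.

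SETD6, which methylates the RELA subunit of NF-kappa-B, had 2.97, 3.63 and 3.53 CPM in pseudopodia, 2.64, 3.22 and 2.79 in cell body and 2.92, 4.20 and 3.24 in whole cell. SETD9 had 2.93, 3.44 and 1.87 CPM in pseudopodia, 2.67, 2.14 and 3.33 in cell body and 2.09, 2.11 and 2.28 in whole cell. The groups overlapped for both. SETD6 gave 0.23, -0.03 and -0.26 and SETD9 gave 0.02, 0.35 and 0.33 in the 3 comparisons, and neither passed (adjusted p from 0.229 to 0.956).

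**Figure D2:**
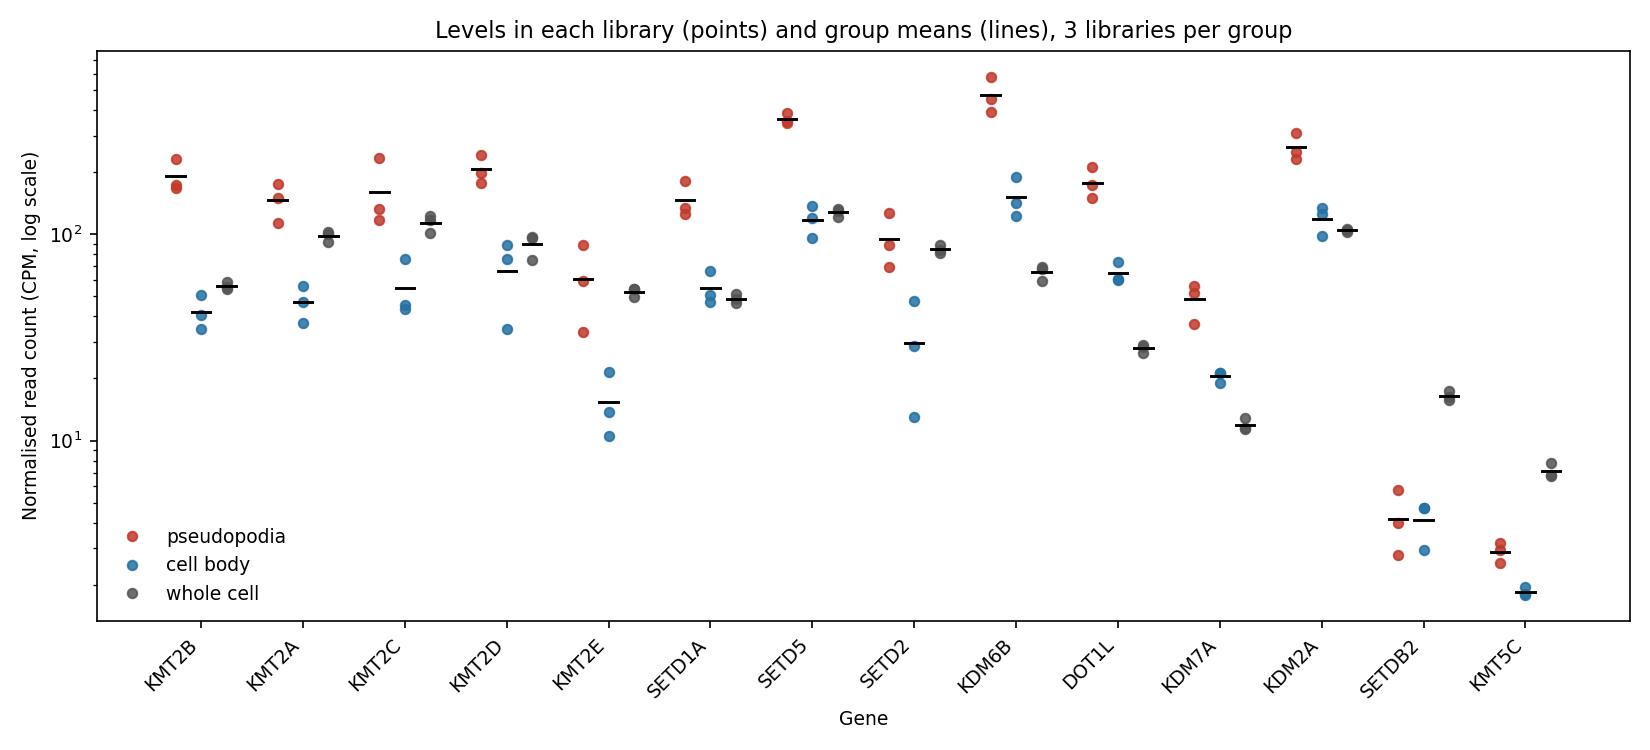
CPM on a log axis is plotted for 14 genes in each library, coloured by group, with the mean of 3 libraries as a black line. For KDM6B, DOT1L and KDM7A the groups step down from pseudopodia to cell body to whole cell, while for SETDB2 and KMT5C whole cell is highest.

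The calls between pseudopodia and cell body that were lost when 1 library was left out were those of KDM4A (without pseudopodia replicates 1 or 3 or any cell body library), SETDB1 (without pseudopodia replicate 1 or cell body replicates 1 or 2), SETD7 (without pseudopodia replicates 1 or 2 or cell body replicates 1 or 2), EZH2 (without cell body replicate 3 or pseudopodia replicate 1) and NSD3 (without cell body replicates 1 or 3). On the deposited TPM scale, with limma, 27 genes were higher and 2, KDM8 and SETD4, lower, and the calls of KDM1A, KDM4C, KMT5C and the 5 genes just named were lost. Of all 19426 genes tested, 2310 were higher and 5907 lower on log2(TPM + 1).

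Pseudopodia were next set against whole cells, a comparison that shares the pseudopodia libraries with the first. Of 46 genes 25 were higher (54.3%), 5 were lower (10.9%) and 16 did not pass, beside 27.9% higher and 33.1% lower among all genes tested. The groups did not overlap for 27 genes that were higher and 5 that were lower, beside 31.1% and 38.9% of all genes. The median log2 fold change was 0.50 in the set and -0.12 in all genes. Of 17 tested demethylases 13 were higher and 1 was lower, with a median of 0.90. Of 23 methylases 10 were higher and 3 were lower, with a median of 0.29. The difference between these counts was not tested. The 5 genes below whole cell were SETDB2, KMT5C, KDM4D, SETD4 and KMT5B. The largest differences above it were those of KDM6B (2.86), DOT1L (2.66), KDM7A (2.02), KMT2B (1.76, SE 0.171, adjusted p = 7.64e-06), SETD1A (1.59), SETD5 (1.50) and KDM2A (1.34).

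KMT2D (1.21), KDM3A (1.19), EHMT1 (1.25), EHMT2 (0.75) and NSD2 (0.63) were also higher in pseudopodia than in whole cell, as were KMT2A (0.57), NSD1 (0.51), KDM3B (0.49), KDM4B (0.44), KDM4A (0.42) and KDM4C (0.39). Leaving out 1 library ended the calls of KDM4A (pseudopodia replicates 1 or 3 or any whole-cell library), KDM4B (pseudopodia replicate 3 or any whole-cell library), KDM4C (whole cell replicate 3), KMT2A (replicate 2 of either group), NSD1 (whole cell replicates 2 or 3) and KMT5B (pseudopodia replicate 1 or any whole-cell library). The scale mattered here: on log2(TPM + 1) the median of all genes fell to -0.34 and that of the set to 0.01, with 17 genes higher and 12 lower, and KDM4A, KDM4B and KDM4C were at -0.05, -0.04 and -0.06. Of all 19426 genes tested, 3227 were higher and 9687 lower on that scale. The calls of EHMT2, NSD2, KDM3B, KMT2A and NSD1 were also lost on both TPM scales, and that of KMT2D on log2(TPM + 0.1).

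Cell bodies were compared with whole cells last, again with shared libraries. Here 6 of 46 genes were higher (13.0%), 16 were lower (34.8%) and 24 did not pass, beside 18.1% and 20.5% of all genes tested. The groups did not overlap for 8 genes that were higher and 21 that were lower, beside 30.0% and 34.9% of all genes. In the set the median log2 fold change was -0.22, and in all genes it was -0.06. The 6 that were higher were DOT1L, KDM6B, KDM7A, KDM5C (0.48), SETD3 and KDM1A (0.32). Of 23 methylases 13 were lower and 1 was higher, and of 17 demethylases 2 were lower and 4 were higher. The lowest ratios were those of SETDB2, KMT5C, KMT2E (-1.78, SE 0.358, adjusted p = 0.00463), SETD2, KMT2A (-1.07, SE 0.187, adjusted p = 0.00138) and KMT2C (-1.04, SE 0.291, adjusted p = 0.0200).

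The other genes below whole cell were KMT5B, EZH1, KDM4D, NSD3 (-0.81), SETD1B (-0.77), EZH2, NSD1 (-0.67), SETD4, SETDB1 (-0.60) and KDM2B (-0.46). Leaving out any 1 library ended the call of KDM1A, and single omissions ended those of KDM5C (any library but cell body replicate 1), KDM2B (any but whole cell replicate 3), KMT2C (replicates 1 or 3 of either group), SETD2 (replicate 1 of either group), SETD4 (whole cell replicate 2) and SETD3 (whole cell replicate 3). With whole cell replicate 3 left out, 3 genes in place of 6 were higher, and on TPM 3 were higher and 20 lower. Of all 19426 genes tested, 2643 were higher and 5898 lower on log2(TPM + 1).

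Read across the 3 comparisons, 16 genes were higher in pseudopodia than in both other groups with no difference passing between those. Another pattern held 9 genes (EZH1, EZH2, KDM2B, KMT2C, KMT2E, NSD3, SETD1B, SETD2 and SETDB1) that were higher in pseudopodia than in cell body and lower in cell body than in whole cell, with pseudopodia and whole cell not passing. A further 6 genes (DOT1L, KDM1A, KDM5C, KDM6B, KDM7A and SETD3) were higher in both fractions than in whole cell and higher in pseudopodia than in cell body. The shares of all genes tested with these called patterns are not given here, so the counts are not read as particular to the set. In 16 of 46 genes the whole-cell mean lay below both fractions (34.8%, beside 33.9% of all genes), in 18 between them (39.1%, beside 25.2%) and in 12 above both (26.1%, beside 41.0%). Genes of the last kind included SETDB2, KMT5C, KMT5B, KDM4D, NSD3 and EZH2, and the first kind included DOT1L, KDM6B, KDM7A and KDM5C.

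Summed TPM puts the methylases and demethylases on 1 scale. The methylases summed to 498, 534 and 548 TPM in pseudopodia, 245, 307 and 265 in cell body and 454, 399.7 and 426 in whole cell. The demethylases summed to 600.1, 588 and 683 in pseudopodia, 312, 404 and 392 in cell body and 355, 321 and 337 in whole cell. The methylase sum was lowest in cell body, while the demethylase sums of cell body and whole cell overlapped. The methylase sum was 0.847 ± 0.0558 (SD, n = 3) times the demethylase sum in pseudopodia, while it was 0.740 ± 0.0573 in cell body and 1.26 ± 0.0159 in whole cell. KDM6B alone held 217 of 624 TPM of the demethylases in pseudopodia, on average, and 41.4 of 338 in whole cell. Without it the ratio was 1.30 ± 0.0328 in pseudopodia, while it was 0.959 ± 0.0957 in cell body and 1.44 ± 0.0271 in whole cell. With or without KDM6B, the ratios of the 3 groups did not overlap, and whole cell was highest and cell body lowest. By mean TPM the leading genes were KDM6B (217), KDM2A (85.8), SETD7 (76.4) and SETD1A (75.9) in pseudopodia, and SETD7 (60.4), KDM2A (46.9), KDM5C (44.4) and KDM3B (42.3) in whole cell, where KDM6B (41.4) had rank 5. SETD7 varied from 38.8 to 107 TPM between pseudopodia libraries, so its place among the neighbours in that order is not separated from their spread.

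**Figure D3:**
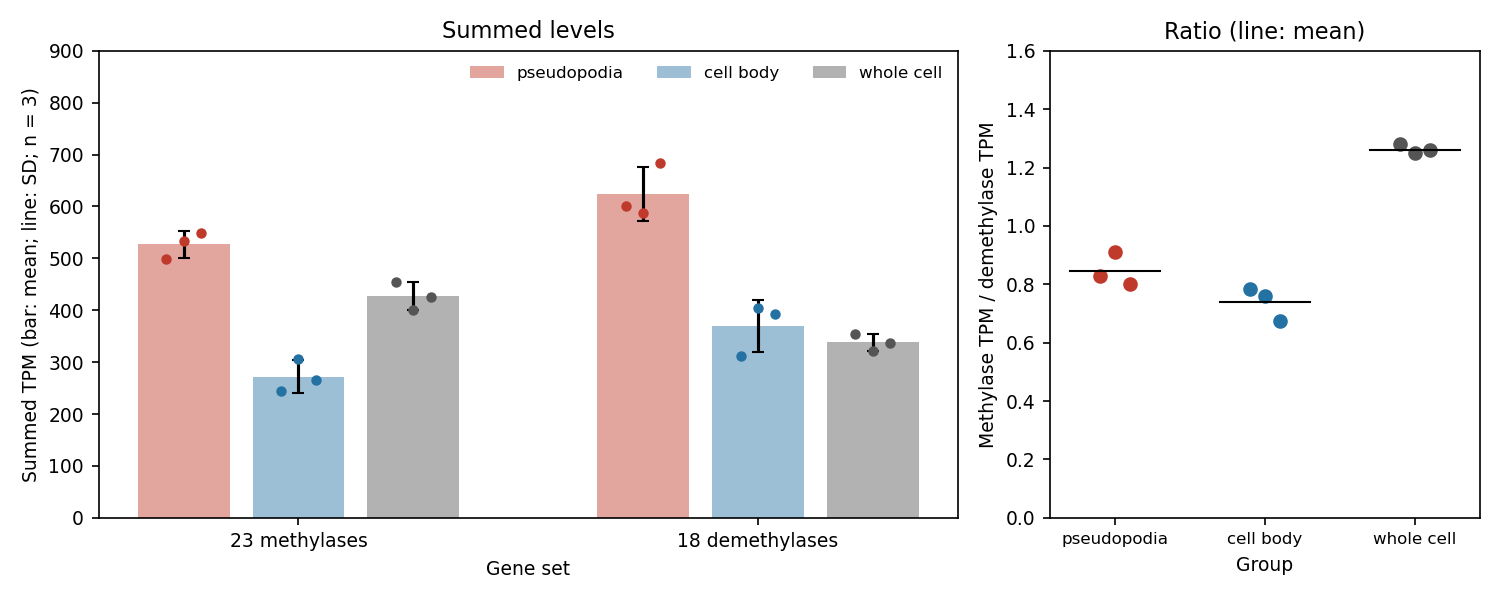
Bars give the mean summed TPM of the 23 methylases and 18 demethylases per group, with the SD over 3 libraries as error bars and the libraries as points, and the right panel gives their ratio per library. The ratio is above 1 in the 3 whole-cell libraries and below 1 in the 6 libraries of the fractions.

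By their median the genes of the set were long, a feature that the naming rule did not use, although not every one of them was. The median coding length was 3753 bases for the 46 tested genes and 1410 bases for 13989 tested protein-coding genes. Within the set the log2 fold change between pseudopodia and cell body went with coding length, with Spearman's rho of 0.76 and Pearson's r of 0.74 over 46 genes. Across all 13989 genes rho was 0.09. These correlations are across genes of the same 6 libraries, which are not independent replicates, and are given as a description. By length class, the median of the set was 0.07 for 11 genes under 2000 bases, 0.58 for 15 genes from 2000 to under 4000, 1.06 for 14 genes from 4000 to under 6000 and 1.64 for 6 genes of 6000 or more. The medians of all protein-coding genes in those classes were -0.13, 0.01, 0.27 and 0.40. In the set the fold change also went with mean CPM (rho 0.71), and longer genes collect more reads. With counts corrected for GC content and length, 37 genes were higher in pseudopodia than in cell body and 0 were lower, and the median was 0.80 in the set and 0.04 in all genes. Of all 18675 genes in that fit, 4537 were higher and 3894 lower, beside 18.6% and 19.9% in the main fit.

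**Figure D4:**
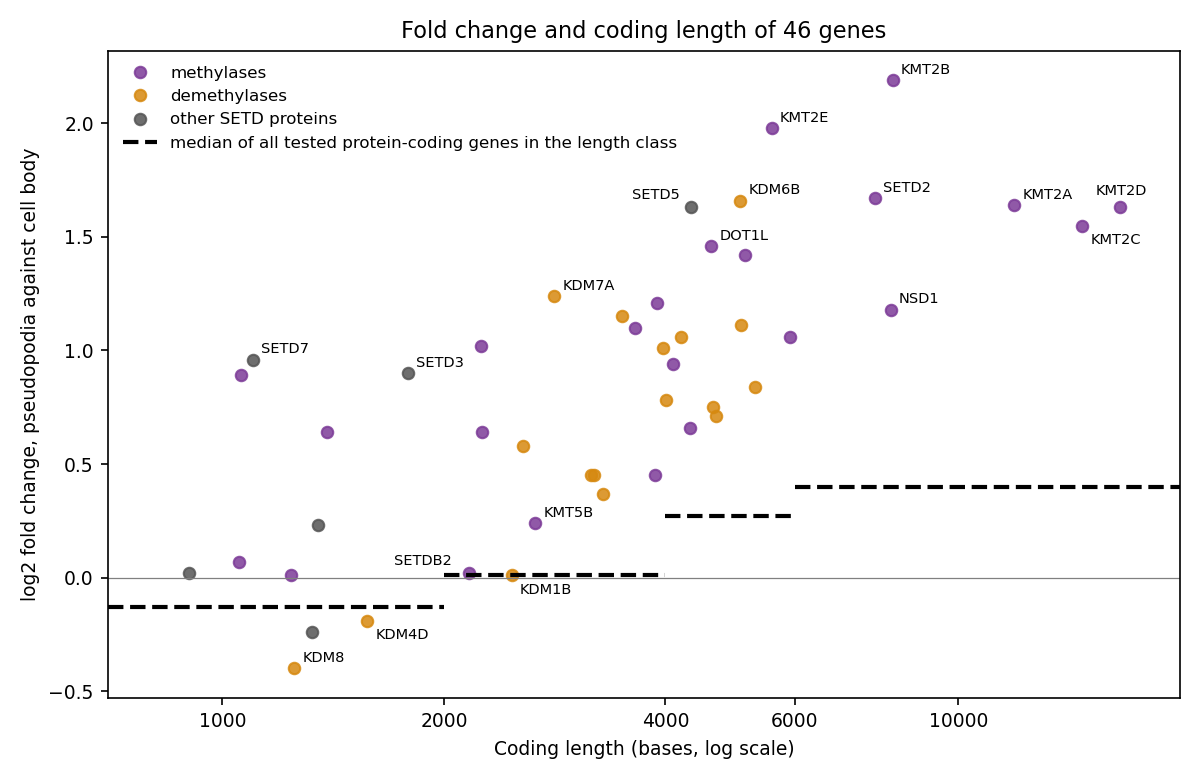
The log2 fold change between pseudopodia and cell body is plotted against coding length on a log axis for the 46 tested genes, coloured by role, with dashed lines for the medians of all tested protein-coding genes in 4 length classes. The class medians of the set go from 0.07 under 2000 bases to 1.64 at 6000 or more, and the dashed lines from -0.13 to 0.40.

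The 6 genes of 6000 or more coding bases were KMT2A, KMT2B, KMT2C, KMT2D, SETD2 and NSD1. The 3 longest, KMT2D with 16614 bases, KMT2C with 14736 and KMT2A with 11910, did not exceed KMT2B with 8148 in fold change. Against whole cell the medians of the 4 classes in the set were -0.03, 0.42, 1.02 and 0.54, so the order of the classes was not the same there.

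Partner genes of the enzymes were read from 10 lists, whose counts stand beside 18.6% higher and 19.9% lower among all genes tested, with no test of any list. Of 15 listed subunits of the H3K4 methylase complexes 6 were higher in pseudopodia than in cell body and 1 was lower, with a median log2 fold change of 0.35, beside all 7 of the genes grouped as H3K4 methylases. The largest were BOD1L1 (1.92, adjusted p = 0.0258) and PAXIP1 (1.12), a subunit of the KMT2C and KMT2D complexes. The call of BOD1L1 was lost in 9 of 18 alternatives (adjusted p up to 0.457), among them the omission of pseudopodia replicates 2 or 3 or cell body replicates 1 or 3. Of 11 tested PRC2 subunits and accessory proteins 4 were higher, led by JARID2 (1.22) and EPOP (0.98). The 2 that were lower were RBBP4 (-0.40) and RBBP7 (-0.47), and EED (0.26) and SUZ12 (-0.03) did not pass. Of 13 partners and readers of H3K9 methylation 5 were higher and 0 lower, led by MORC2 (1.13), which works with the HUSH silencing complex, and UHRF1 (0.72). Of 7 DOT1L partners 3 were higher and 0 lower, with MLLT6 (1.51) and MLLT10 (1.03) first, while the median of that list was 0.04. Against whole cell, 2 of these partners were higher in pseudopodia and 3 lower (beside 27.9% and 33.1% of all genes tested), with a median of -0.61.

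Of 12 genes of the KDM1A complex 3 were higher and 0 lower, led by GSE1 (1.05) and PHF21A (0.59), whose call was lost in 9 of 18 alternatives (adjusted p up to 0.401), among them the omission of pseudopodia replicates 1 or 2 or cell body replicates 2 or 3. Against whole cell, 3 genes of the KDM1A complex were higher in pseudopodia and 5 lower (beside 27.9% and 33.1% of all genes tested). Between pseudopodia and cell body again, of 10 readers of H3K36 methylation 3 were higher and 1 was lower, led by HDGFL2 (1.45) and BRPF1 (1.28). Further SET-domain genes outside the naming rule had 4 of 9 higher and 1 lower, among them ASH1L (1.29), an H3K36 methylase, and PRDM16 (0.85), whose call was lost without cell body replicate 3. Further JmjC-domain genes had 5 of 12 higher and 0 lower, among them the demethylase PHF8 (1.22) and HIF1AN (0.93), which hydroxylates HIF. Of 8 protein arginine methylases 1 was higher, PRMT2 (0.45), and 0 were lower, with a median of -0.16. In the supply of the methyl donor 1 of 10 genes was higher, MTR (2.16, adjusted p = 0.000447), and 2 were lower. MTR is methionine synthase, and MAT2A (-1.02, adjusted p = 0.000766), which makes S-adenosylmethionine, was the lowest of that list. For all but BOD1L1, PHF21A and PRDM16 the calls of these named partners were kept whichever library was left out. On both TPM scales those of UHRF1 and PRMT2 were lost as well, that of MLLT10 was lost on log2(TPM + 1), and that of PRDM16 was lost on TPM and with the GC and length correction.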

How the data were processed

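RNA was isolated with TRIzol and sequenced after a low-input cDNA library preparation, per the labels' protocols. The deposited values were raw gene counts from featureCounts for all 9 libraries and TPM values per library, both made by the authors. The build was GRCh38 and DESeq2 is named, per the submitters' processing notes. Aligner, annotation release and strand setting: not given in the sources used here.

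Counts were tested with edgeR 4.0.16 in R 4.3.3 (TMM factors, default expression filter, robust quasi-likelihood test, 1 fit over 9 libraries, Benjamini-Hochberg adjustment over 19426 genes, called at an adjusted p under 0.05). CPM values use TMM-adjusted library sizes. Fold changes of all genes of the set were printed, with per-library values for the 8 largest called changes in each comparison and for genes called in none. From each partner list the 2 largest called changes were named. The genes and lists were chosen with earlier results of these data known. Alternatives used limma 3.58.1, DESeq2 1.42.0, other scalings and filters, a GC and length correction, and the omission of each library. The fit was tested on simulated data. Coding and 3′ UTR lengths and sequences came from GENCODE 29.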

Additional observations from a re-analysis of the deposited data

How the results depend on the processing

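The 35 higher genes between pseudopodia and cell body ranged from 27 (TPM) to 37 (GC and length correction) over the alternatives, and from 31 to 35 with 1 library left out. The 0 lower became 1 with limma-voom, 2 with TPM + 1 and 2 with TPM + 0.1, and 0 to 1 with 1 library left out, the 1 being KDM8 without pseudopodia replicate 3. Against whole cell, the 5 lower in pseudopodia became 8 with limma-voom, 12 with TPM + 1 and 11 with TPM + 0.1, and the 25 higher became 16 with TPM + 0.1. The 6 genes higher in cell body than in whole cell became 10 with limma-voom, 3 with either TPM scale and 11 with the GC and length correction, and 3 to 5 with 1 library left out. The sign changes named next are only those of genes that passed in the main fit or in the alternative. The log2 fold change between pseudopodia and whole cell changed sign on TPM + 1 and TPM + 0.1 for KDM4A (-0.05 on both), KDM4B (-0.04 and -0.05), KDM4C (-0.06 and -0.07) and EZH1 (-0.37 and -0.38). With the GC and length correction it changed sign for EZH2 (0.40), NSD3 (0.45), KMT5B (0.06) and SUV39H2 (0.72). In this comparison 12 genes gave a further 37 sign changes, over all alternatives and omissions, that passed in neither fit. The cause was not tested. On TPM + 1 the share of called genes that were higher, over all genes, was 28.1% in place of 48.2%, 25.0% in place of 45.7% and 30.9% in place of 46.9% in the 3 comparisons. With the GC and length correction it was 57.7% against whole cell in pseudopodia and 60.9% in cell body.

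The replicate block gave 33 higher and 0 lower, 24 and 5, and 5 and 16. Same-numbered libraries did not deviate together (r from -0.0807 to 0.0901), and not every library correlated best with its own number. With 3 libraries per group, these r values cannot show whether same-numbered libraries came from the same culture or membrane. In all 9 libraries KDM4D, KDM8, KMT5C, SUV39H1, SUV39H2, SETD6 and SETD9 rested on a few CPM, as did SETDB2 in the fractions, and among these KMT5C, SETDB2 and KDM4D carry called differences.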

Other observations

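Some of the name matches left out of the set had counts. KDM7A-DT, the divergent transcript beside KDM7A, held 213, 235 and 215 raw counts in pseudopodia, 98, 137 and 174 in cell body and 100, 111 and 95 in whole cell. KDM4A-AS1, antisense to KDM4A, held 20, 22 and 20 in pseudopodia, 16, 46 and 25 in cell body and 118, 107 and 79 in whole cell. No test was made of these raw counts.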
